A study of Rattus norvegicus with 10 samples.

Results

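The transcripts described here encode 10 transcription regulators grouped as magnocellular lineage factors: Sim1, Sim2, Otp, Pou3f1, Pou3f2, Arnt2, Nhlh2, Rora, Cited1 and Foxp1. They were taken by gene symbol from the 32402 listed genes of a rat supraoptic nucleus RNA-seq study. Each symbol belonged to 1 Ensembl identifier. Of the 10 genes, 9 had enough reads to be tested among 15311 genes, and Sim2 did not. The supraoptic nucleus is a hypothalamic cell group whose magnocellular neurones make vasopressin and oxytocin. The rats were Wistar Han, of an age and sex not given in the sources used here, and carried no stated genetic change. Euhydrated rats (5 samples) drank freely. Dehydrated rats (5 samples) had their drinking water taken away for 72 h. Both nuclei of the brain were collected with a 1 mm corer from 12 slices, so each sample also held glia, vessels and neighbouring neurones. The labels do not state whether the samples came from different animals; a p-value here thus reflects sample-to-sample spread, some of which may be technical. Water access was set by cage, and cage was not modelled.

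In the developing hypothalamus, SIM1 and its partner ARNT2, a pair of proteins with a basic helix-loop-helix and a PAS domain, bind DNA together and are needed for the neurones of the supraoptic and paraventricular nuclei to form. The homeodomain protein OTP is needed for the same lineages, and the POU-domain protein BRN2, the product of Pou3f2, acts downstream of SIM1 and ARNT2. The other genes listed encode relatives of these proteins or regulators found in neuroendocrine neurones. The comparison asked whether the transcripts of all these genes differ after 72 h without water.

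Each library held 24268398 to 28491926 reads assigned to genes. Levels below are in CPM, a gene's reads relative to the library total after TMM scaling, and every fold change is dehydrated over euhydrated. Adjusted p-values are Benjamini-Hochberg values from edgeR across the 15311 tested genes, called at 0.05. All 9 magnocellular marker genes were detected well enough to be tested, and their summed level was 8566 to 11980 CPM in euhydrated and 12891 to 16976 CPM in dehydrated libraries. Of those markers 6 rose (Pdyn, Scg2, Caprin2, Creb3l1, Kcnn3 and Nos1), from 0.52 (Kcnn3) to 1.91 (Creb3l1) on the log2 scale. Avp, Oxt and Galr1 did not pass, at 0.46, 0.18 and 0.24 (adjusted p = 0.0800, 0.254 and 0.281, edgeR). The mean log2 CPM of all 9 markers was 0.87 higher in dehydrated libraries. The exact two-sided permutation p of that shift was 0.00794, and the adjusted p over 13 marker lists was 0.0516. That p is the smallest this test can give, so a wider separation of the groups could not have lowered it. The part of that shift in the changes described next was not tested. In bulk samples, a change in the number of cells of a type and a change in RNA per cell cannot be told apart.

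Among the 9 listed regulators tested, Nhlh2 and Cited1 rose and none fell. The other 7 did not pass the threshold. Across all genes tested 12.7% passed, 7.79% higher and 4.90% lower in dehydrated samples, a balance that turned to 904 genes higher and 1173 lower (from 1192 and 750) when libraries were scaled to their totals without TMM factors. Nhlh2 and Cited1 were also the only members whose groups did not overlap, against 10.9% of all genes tested (6.90% higher and 3.97% lower). The median log2 fold change of the 9 members was 0.088, beside -0.0058 for all genes. The regulators named first, Sim1, Arnt2, Otp and Pou3f2, all had fitted changes of less than 0.10 on the log2 scale.

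**Figure D1:**
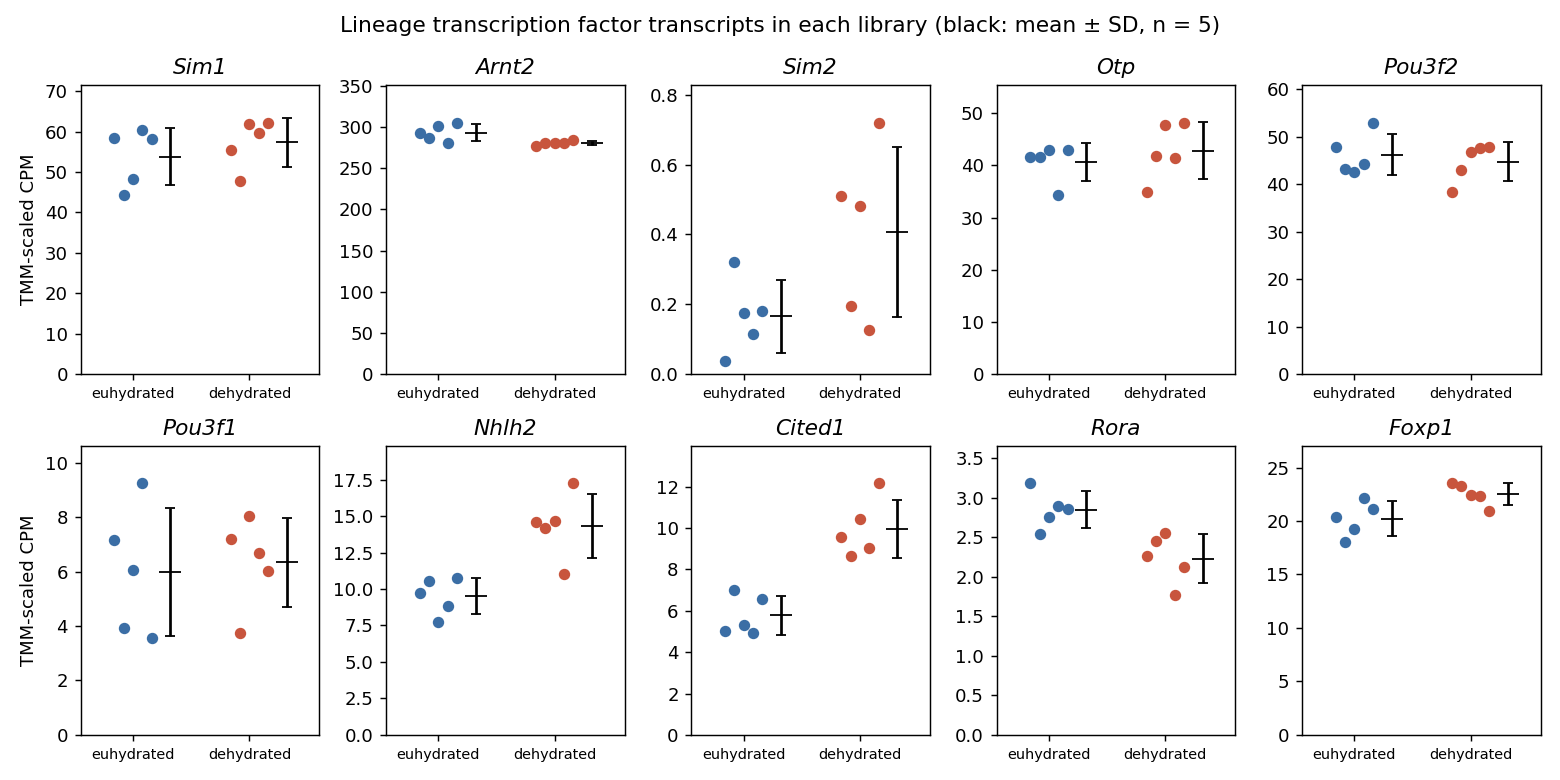
TMM-scaled CPM of each transcript in the 5 euhydrated (blue) and 5 dehydrated (red) libraries, placed from left to right by library number within each group. Black bars are mean ± SD (n = 5), and each axis starts at 0. The groups separate for Nhlh2 (7.71 to 10.7 against 11.0 to 17.2 CPM) and Cited1 (4.95 to 7.01 against 8.64 to 12.2 CPM) and overlap for the other 8 genes.

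Sim1 (ENSRNOG00000037600), the founding regulator of the lineage, did not pass the threshold. It stood at 58.4, 44.3, 48.2, 60.3 and 58.1 CPM in euhydrated libraries 1 to 5. In dehydrated libraries 1 to 5 it stood at 55.4, 47.7, 61.98, 59.6 and 62.2 CPM. The groups overlapped widely, with library 2 the lowest of either group. The means were 53.9 ± 7.15 and 57.4 ± 6.05 CPM (SD, n = 5), a log2 fold change of 0.092 ± 0.10 (SE; adjusted p = 0.623, edgeR). The 95% interval of the fold change ran from 0.914 to 1.24.

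Arnt2 (ENSRNOG00000013017), for the dimer partner of SIM1, varied least between libraries of the 10 genes, with a coefficient of variation of 3.43% and 0.893% in the 2 groups and 6669 to 8624 reads in a library. Its level was 293, 287, 301, 281 and 305 CPM in euhydrated and 277, 280, 281, 281 and 284 CPM in dehydrated libraries. All 5 dehydrated libraries lay below the euhydrated mean of 293 CPM, and 2 lay below every euhydrated library. The change was small, at a log2 fold change of -0.063 ± 0.028 (SE), or 4.30% lower, and it did not pass (adjusted p = 0.164, edgeR). It did pass when libraries were scaled to their totals without TMM factors (log2 fold change -0.090, adjusted p = 0.0452, edgeR), a scaling that moved the median of all genes from -0.0058 to -0.033. The alternative partner Arnt, chosen here after its values were seen, had a log2 fold change of 0.027 ± 0.044 (SE; adjusted p = 0.749, edgeR).

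Sim2 (ENSRNOG00000054203), for the close relative of SIM1, was near the limit of detection. Its counts were 1, 9, 5, 3 and 5 reads in euhydrated and 14, 5, 13, 3 and 18 reads in dehydrated libraries, 23 and 53 reads in all. Dehydrated libraries 1, 3 and 5 were above every euhydrated library, and dehydrated 2 and 4 were within the euhydrated range. The mean levels of 0.166 ± 0.105 and 0.406 ± 0.244 CPM (SD, n = 5) did not differ beyond the spread (exact two-sided permutation p = 0.0794). In the authors' deposited table its log2 fold change was 1.29 ± 0.60 (SE) with a p-value of 0.0305 and no adjusted value. With so few reads and this spread between libraries, no difference was established.

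Otp (ENSRNOG00000010560), for the homeodomain regulator, showed no called change. It was at 41.6, 41.7, 43.0, 34.4 and 42.9 CPM in euhydrated libraries, where library 4 stood apart below the other 4. In dehydrated libraries it was at 34.9, 41.9, 47.7, 41.5 and 48.2 CPM, and libraries 3 and 5 exceeded every euhydrated one. The log2 fold change was 0.072 ± 0.088 (SE; adjusted p = 0.665, edgeR), with a 95% interval of 0.920- to 1.20-fold.

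Pou3f2 (ENSRNOG00000006908) ran from 42.7 to 53.0 CPM in euhydrated libraries and from 38.4 to 47.8 CPM in dehydrated ones. Only dehydrated library 1 lay outside the euhydrated range. Its log2 fold change was -0.046 ± 0.071 (SE; adjusted p = 0.738, edgeR), with a 95% interval of 0.871- to 1.08-fold. The plot of intervals shows those of Sim1, Otp and Pou3f2 spanning 0.

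Pou3f1 (ENSRNOG00000047686), another POU-domain gene, best known from myelinating Schwann cells, was the most variable of the tested members. It stood at 7.16, 3.94, 6.07, 9.25 and 3.55 CPM in euhydrated libraries. In dehydrated libraries it stood at 7.21, 3.74, 8.06, 6.70 and 6.04 CPM. The coefficient of variation was 39.3% among euhydrated and 25.8% among dehydrated libraries, against 9.33% and 9.13% for Pou3f2. Every dehydrated library lay inside the euhydrated range, and the log2 fold change was 0.088 ± 0.29 (SE; adjusted p = 0.891, edgeR). Its 95% interval, 0.681- to 1.66-fold, was the widest of the 9.

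**Figure D2:**
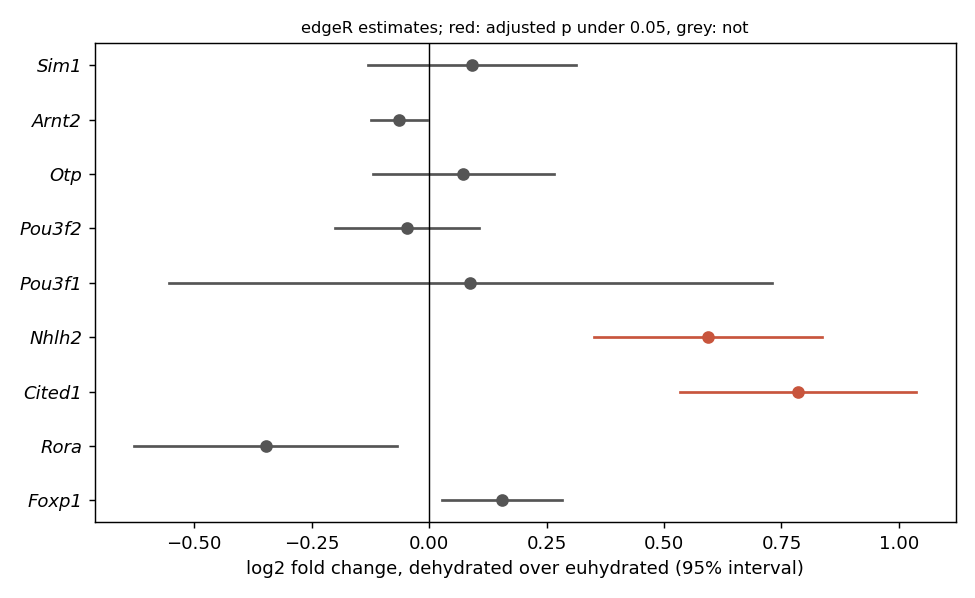
edgeR log2 fold change of each tested member (dots) with its 95% interval (lines), dehydrated over euhydrated; red marks an edgeR adjusted p under 0.05. Nhlh2 (0.59) and Cited1 (0.79) lie clear of 0, Rora and Foxp1 lie to either side of it without passing, and the interval of Pou3f1 is the widest.

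Cited1 (ENSRNOG00000003189) rose most. Its product is a transcriptional coregulator that binds no DNA itself and works through CBP and p300. It was at 5.02, 7.01, 5.34, 4.95 and 6.56 CPM in euhydrated libraries. In dehydrated libraries it was at 9.58, 8.64, 10.4, 9.02 and 12.2 CPM. The lowest dehydrated library was above the highest euhydrated one. The rise was 1.72-fold, with a 95% interval of 1.45- to 2.05-fold (log2 fold change 0.79 ± 0.12, SE; adjusted p = 0.000392, edgeR). The libraries held 130 to 304 reads of it.

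Nhlh2 (ENSRNOG00000054375) rose 1.51-fold. It encodes a basic helix-loop-helix factor of neuroendocrine neurones, whose loss in mice gives late-onset obesity and low fertility. The euhydrated libraries held 9.76, 10.5, 7.71, 8.83 and 10.7 CPM. The dehydrated libraries held 14.6, 14.2, 14.7, 11.0 and 17.2 CPM. The groups came closest at euhydrated 5 and dehydrated 4 and did not overlap. The log2 fold change was 0.59 ± 0.11 (SE), with a 95% interval of 0.35 to 0.84 (adjusted p = 0.00311, edgeR), and without any 1 library the adjusted p stayed between 0.000408 and 0.0112.

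Of 10 erythrocyte markers 6 were matched and tested, and their mean level was 0.84 lower in dehydrated libraries on the log2 scale (exact two-sided permutation p = 0.0476, adjusted p = 0.155 over 13 marker lists). Their summed level was 1013 to 2028 CPM in euhydrated and 582 to 1413 CPM in dehydrated libraries, and 1 of the 6 fell. With that level as a covariate Nhlh2 missed the threshold (log2 fold change 0.57 ± 0.16, SE, against 0.59 ± 0.11 without it; adjusted p = 0.0528, edgeR), and Cited1 kept its call (0.68, adjusted p = 0.0226). The mean level of the 9 general neuronal markers differed by -0.011 on the log2 scale, with 1 called higher (Tubb3) and 1 lower (Nefl). That of the 10 astrocyte markers differed by -0.037, with none called. For the 10 oligodendrocyte markers the difference was -0.16, with 2 called lower (Opalin and Cnp). The exact permutation p-values of these 3 means were 0.683, 0.508 and 0.175.

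Promoter sequences are shown for the genes that rose, Nhlh2 and Cited1, and for Sim1 as a lineage gene that did not pass. RefSeq promoter windows of the assembly GRCr8, from 250 bases before to 50 bases after the start of transcription, were found for 8 of the 10 members, and Sim2 and Pou3f1 had no entry. Each is written 5′ to 3′ on the gene's strand, with every E-box, the CANNTG motif bound by basic helix-loop-helix proteins, in capitals. The windows are chr2:192132598-192132897 (plus strand) for Nhlh2, chrX:71394974-71395273 (minus strand) for Cited1 and chr20:55410327-55410626 (plus strand) for Sim1.
Nhlh2: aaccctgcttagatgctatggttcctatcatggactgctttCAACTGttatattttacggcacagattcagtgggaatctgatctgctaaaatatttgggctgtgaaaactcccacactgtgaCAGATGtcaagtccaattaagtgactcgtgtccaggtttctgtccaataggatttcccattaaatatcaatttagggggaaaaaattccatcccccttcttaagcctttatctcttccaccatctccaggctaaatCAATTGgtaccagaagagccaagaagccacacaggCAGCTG
Cited1: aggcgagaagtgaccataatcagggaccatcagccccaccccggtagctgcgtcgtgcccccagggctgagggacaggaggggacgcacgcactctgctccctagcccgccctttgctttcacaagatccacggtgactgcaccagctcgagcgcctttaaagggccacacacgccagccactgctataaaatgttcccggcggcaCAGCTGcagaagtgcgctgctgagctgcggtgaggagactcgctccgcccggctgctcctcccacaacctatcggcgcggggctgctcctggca
Sim1: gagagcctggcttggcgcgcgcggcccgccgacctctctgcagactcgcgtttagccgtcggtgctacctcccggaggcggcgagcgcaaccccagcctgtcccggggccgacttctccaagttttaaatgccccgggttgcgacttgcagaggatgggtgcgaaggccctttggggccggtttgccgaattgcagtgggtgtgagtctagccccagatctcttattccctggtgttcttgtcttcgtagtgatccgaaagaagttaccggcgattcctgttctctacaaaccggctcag

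The Nhlh2 window held 4 E-boxes, the Cited1 window 1 and the Sim1 window 0. At least 1 E-box stood in 6 of the 8 members' windows and in 72.1% of all 33469 promoter windows of the same length, and at least 4 stood in 5.79% of them, Nhlh2 and Rora included. Base composition differed between the genes that rose: the Nhlh2 window was 42.7% G or C, against 64.3% for Cited1, 61.0% for Sim1 and a median of 51.7% over all windows. Nhlh2 and Foxp1 had few CpG pairs, with an observed to expected ratio of 0.149 and 0.175, whereas the other 6 members lay between 0.683 and 0.973 and the median window at 0.392. The ACGTG core read by bHLH-PAS dimers, which can overlap an E-box, matched on neither strand of any of the 8 windows and in 19.3% of all windows. The cyclic AMP response element TGACGTCA (1.83% of all windows), the ROR motif AGGTCA (16.2%) and the POU octamer ATGCAAAT (1.78%) also had no match. The AP-1 motif TGANTCA matched in Foxp1 (7.33% of all windows) and the forkhead motif TGTTTAC in Foxp1 and Rora (3.78%).

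Neither Rora nor Foxp1 passed the threshold. Rora (ENSRNOG00000027145), for an orphan nuclear receptor that activates clock genes, was low, with 42 to 88 reads a library. It was at 3.18, 2.54, 2.76, 2.89 and 2.86 CPM in euhydrated and 2.26, 2.45, 2.55, 1.77 and 2.12 CPM in dehydrated libraries. All dehydrated libraries but 1 were below every euhydrated library, the exception being dehydrated 3, which sat just above euhydrated 2. The log2 fold change was -0.35 ± 0.13 (SE), or 21.4% lower (adjusted p = 0.0998, edgeR), and its adjusted p lay between 0.0781 and 0.409 over 22 alternative settings.

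Foxp1 (ENSRNOG00000009184), for a forkhead repressor of forebrain neurones, was at 20.4, 18.0, 19.3, 22.2 and 21.2 CPM in euhydrated libraries. In dehydrated libraries it was at 23.5, 23.3, 22.4, 22.3 and 20.9 CPM. The first 4 of those values were above every euhydrated library, and dehydrated 5 was within the euhydrated range. The log2 fold change was 0.16 ± 0.060 (SE), or 11.4% higher (adjusted p = 0.108, edgeR), and over 22 settings its adjusted p lay between 0.0596 and 0.238.

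**Figure D3:**
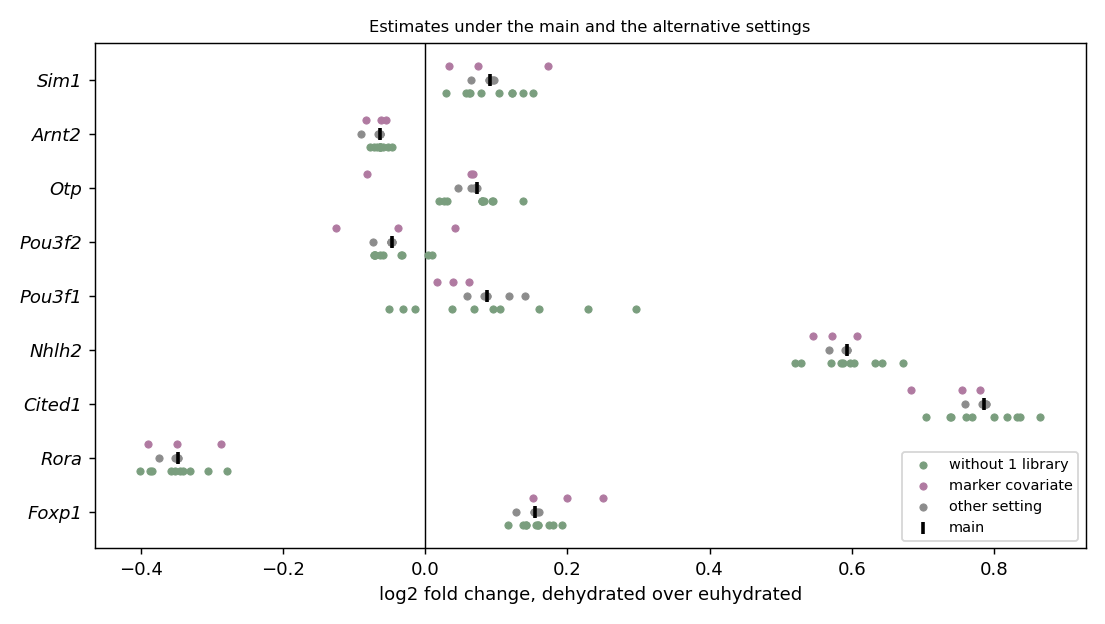
Log2 fold change of each tested member (dehydrated over euhydrated) as reported in the text (black bar), with 1 library left out (green), with the mean level of a set of cell type markers as a covariate (purple) and under the other settings (grey). Cited1 (0.68 to 0.87) and Nhlh2 (0.52 to 0.67) stay on the right, Rora (-0.40 to -0.28) and Arnt2 on the left, and Otp, Pou3f2 and Pou3f1 have settings on both sides of 0.

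Ratios of gene pairs within each library, in which the scaling between libraries largely cancels, were compared for 6 pairs of partners or relatives. None passed after adjustment over the 6 pairs. The log2 ratio of Cited1 to Cited2 was higher by 0.52 in dehydrated libraries (-2.99 ± 0.311 against -2.46 ± 0.232, SD, n = 5; exact two-sided permutation p = 0.0238, adjusted p = 0.143). Without euhydrated 2 the difference was 0.64 (adjusted p = 0.0476, exact permutation). It was the only 1 of 10 such omissions to pass, and over them the adjusted p reached 0.310. The ratio of Rora to Rorb differed by -0.26 (exact permutation p = 0.0714, adjusted p = 0.214), and that of Sim1 to its partner Arnt2 by 0.16 (p = 0.198, adjusted p = 0.238). Sim2 to Sim1, Pou3f1 to Pou3f2 and Foxp1 to Foxp2 had exact permutation p-values of 0.135, 0.635 and 0.159.

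Of the relatives of these genes in the same protein families, 9 were tested: 1 rose, 1 fell and 7 did not pass. Over all genes tested 7.79% rose and 4.90% fell. The median log2 fold change of the relatives was -0.058, beside -0.0058 for all genes. Foxp4, another forkhead gene of the Foxp family, fell 1.34-fold, from 69.2 ± 3.46 to 51.7 ± 4.56 CPM (SD, n = 5; adjusted p = 0.000136, edgeR), with no overlap between the groups. Its relative Foxp2 had a log2 fold change of -0.0069 ± 0.074 (SE; adjusted p = 0.968). Cited2, which encodes a CBP- and p300-binding relative of CITED1, rose 1.19-fold (adjusted p = 0.0355, edgeR). That call did not hold once any of euhydrated 2 and 3 or dehydrated 2, 4 and 5 was omitted (up to 0.0793), nor with the erythrocyte (0.260) or astrocyte covariate (0.0557) or with library totals (0.0506).

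The list of reported NHLH2 targets held only 2 genes, and both rose, beside 7.79% of all genes tested. A part of NHLH2 in these rises was not tested. Pcsk1, for a prohormone convertase, rose 1.69-fold (adjusted p = 0.000116, edgeR). Mc4r, for the melanocortin 4 receptor, rose 1.66-fold, from 3.83 ± 0.956 to 6.35 ± 1.36 CPM (SD, n = 5, adjusted p = 0.0161, edgeR). Mc4r lost its call with erythrocyte or oligodendrocyte markers as a covariate (adjusted p = 0.120 and 0.0665). Of the 5 peptide genes of neurones that need SIM1, OTP or BRN2 (median log2 fold change 0.46), only Crh, for corticotropin-releasing hormone, rose (1.99-fold, adjusted p = 0.0203, edgeR; 0.0507 without dehydrated 3, 0.145 with the erythrocyte and 0.0624 with the oligodendrocyte covariate). Avp, for vasopressin, and Oxt, for oxytocin, did not pass, at 0.46 and 0.18 on the log2 scale (adjusted p = 0.0800 and 0.254, edgeR), although Avp passed without euhydrated 2 (0.0463) and with DESeq2 (0.0144) and limma-voom (0.0200). Trh, for thyrotropin-releasing hormone, was at 74.6 ± 22.9 and 107 ± 39.3 CPM (SD, n = 5; adjusted p = 0.309, edgeR). Sst, for somatostatin, was at 40.4 ± 3.79 and 36.7 ± 3.87 CPM (adjusted p = 0.275, edgeR).

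Of 7 clock genes with ROR elements 1 rose, 2 fell and 4 did not pass, with a median log2 fold change of 0.16. Over all genes tested 7.79% rose and 4.90% fell. Nr1d2, which encodes a repressor that binds the same elements as RORA, fell 1.38-fold, from 99.5 ± 6.77 to 71.9 ± 9.01 CPM (SD, n = 5; adjusted p = 0.00240, edgeR), beside a 1.40-fold fall of its relative Nr1d1 (0.0160). Cry1, for a clock repressor, rose 1.33-fold (adjusted p = 0.0230, edgeR; 0.0598 at most without euhydrated 1 or 4). Of 6 matched markers of the neighbouring suprachiasmatic nucleus, the main circadian clock, 5 were tested and 1 rose, Prok2, with a log2 fold change of 2.25. The other 4 lay between -0.37 and 0.25, and the median of the 5 was 0.0065. Their mean log2 CPM was higher by 0.37 without water, and that rise came from Prok2. The other 4 gave no net rise: Vip (-0.37) and Rorb (-0.086) were lower, Lhx1 (0.25) and Grp (0.0065) higher. Prok2 was scarce, with 214 reads over all libraries and mean CPM of 0.281 with water and 1.36 without. The exact permutation p of the 5-marker mean was 0.00794, the smallest this test can give, and the adjusted p was 0.0516. It thus reflects 1 scarce gene and not a shift of the whole marker set. The summed level of the 6 matched markers was 15.8 to 17.4 CPM in euhydrated and 15.8 to 17.2 CPM in dehydrated libraries. Rorb alone had means of 10.1 and 9.50 CPM. The part of these markers in the clock gene changes was not tested.

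Of 14 other bHLH-PAS genes, the family of Sim1 and Arnt2, 4 rose, 2 fell and 8 did not pass, with a median of 0.13. Over all genes tested 7.79% rose and 4.90% fell. Arntl, Clock and Npas2 are also in the clock list and Arnt is among the family relatives, and none of these passed. Arntl2, for a partner protein of CLOCK, fell 1.79-fold at a low level, from 1.99 ± 0.249 to 1.11 ± 0.137 CPM (adjusted p = 0.00275, edgeR). Per3 fell by 0.37 on the log2 scale (0.0344) and missed the threshold when any library other than euhydrated 1 or dehydrated 5 was omitted (up to 0.0814). It also missed with the erythrocyte (0.300) and oligodendrocyte covariates (0.110) and with no filter on low counts (0.0710). Hif3a and Per1 rose 3.39- and 1.57-fold (1.51e-05 and 0.00467).

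None of the 6 tested coactivators and partners of CITED1 passed (median log2 fold change 0.00025). The histone acetyltransferase gene Crebbp stood at 57.2 ± 1.85 and 59.5 ± 1.58 CPM (SD, n = 5; adjusted p = 0.353, edgeR) and Smad4 at 41.6 ± 0.944 and 41.4 ± 1.18 CPM (0.958). Transcription factors of other hypothalamic and nearby forebrain regions were also present, and 29 of 38 listed passed the filter. Of these 1 rose, 3 fell and 25 did not pass, with a median of -0.044, beside 7.79% higher and 4.90% lower over all genes tested. Foxb1, a forkhead gene of the mammillary region, fell 1.70-fold, from 4.20 ± 0.580 to 2.47 ± 0.499 CPM (adjusted p = 0.00330, edgeR). Fezf2 rose 1.18-fold (0.0101; 0.0566 with the erythrocyte covariate). Meis2 and Nr2f1 fell by 0.24 and 0.17 on the log2 scale (0.0450 and 0.0383). Meis2 missed the threshold when any of euhydrated 1, 2, 3 and 4 or dehydrated 3 and 5 was omitted (up to 0.110), and Nr2f1 without euhydrated 1, 4 or 5 or dehydrated 2, 3 or 5 (up to 0.0981). With erythrocyte, oligodendrocyte or astrocyte markers as a covariate neither passed (0.318, 0.115 and 0.0724 for Meis2; 0.121, 0.0983 and 0.0614 for Nr2f1), and Meis2 also missed with no filter on low counts (0.0676).

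**Figure D4:**
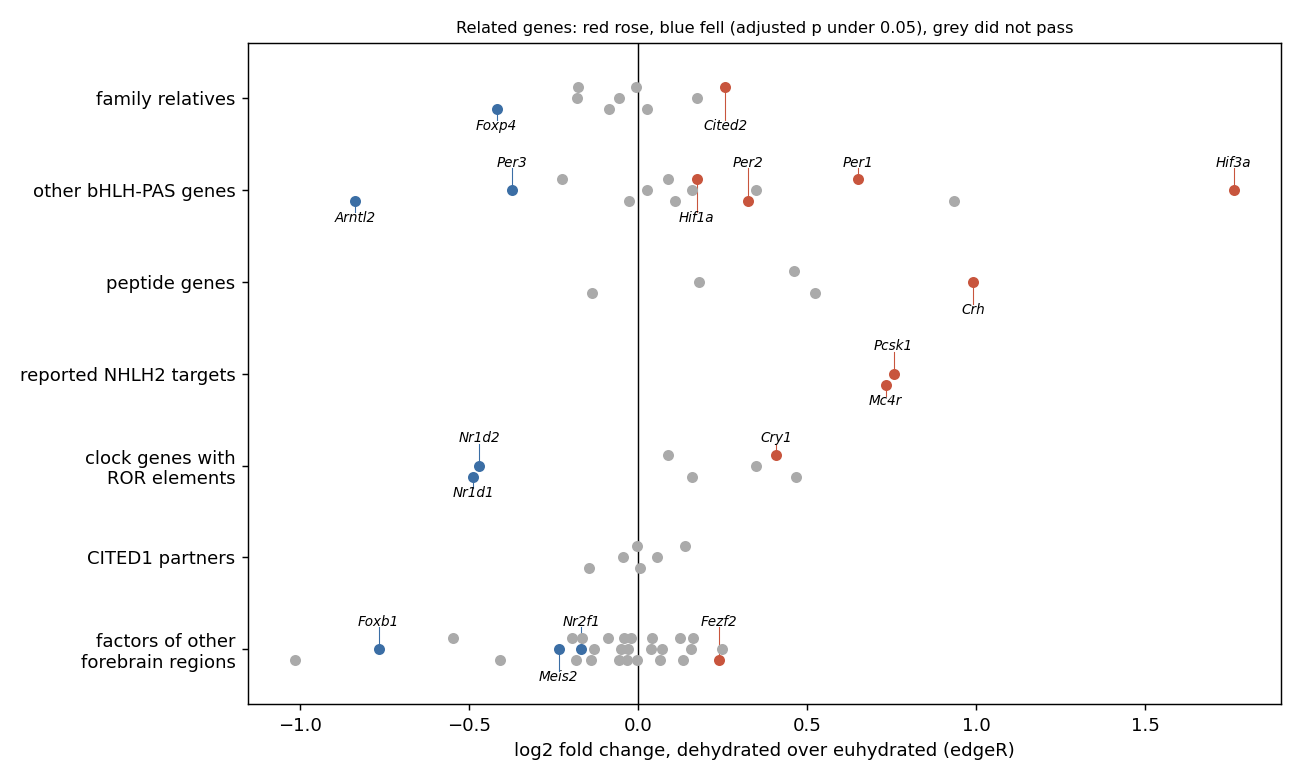
edgeR log2 fold change (dehydrated over euhydrated) of each tested gene in the 7 related lists, offset vertically for legibility; red genes rose and blue genes fell at an adjusted p under 0.05, and grey genes did not pass. Both genes listed as NHLH2 targets lie near 0.75. The clock and bHLH-PAS lists hold calls on both sides of 0, and none of the CITED1 partners is coloured.

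The profile of Cited1 over the 10 libraries, as log2 CPM about each gene's euhydrated mean, was most closely matched by Cthrc1, Trib1 and Crlf2, with root mean square differences of 0.182, 0.183 and 0.189 log2 units. Cthrc1, for a secreted matrix protein, rose 1.70-fold from 3.14 ± 0.462 CPM (SD, n = 5; adjusted p = 0.00116, edgeR). Trib1, for a pseudokinase, rose 1.81-fold from 2.88 ± 0.245 CPM (4.75e-05), and Crlf2, for a cytokine receptor chain, 1.68-fold from 10.8 ± 0.502 CPM (7.47e-06). They were picked for likeness among all genes tested, so the match is a description.

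In the authors' deposited table, made with DESeq2 from the same counts, Cited1 had a log2 fold change of 0.79 ± 0.13 (SE; adjusted p = 4.51e-08) and Nhlh2 one of 0.59 ± 0.12 (adjusted p = 1.79e-05). In the authors' deposited table Foxp1, Rora and Arnt2 had adjusted p-values of 0.111, 0.131 and 0.137. That table called 15.4% of 14613 genes with an adjusted p, and among the members it called the same 2 as edgeR.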

How the data were processed

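Polyadenylated RNA of 10 supraoptic nucleus samples (5 euhydrated, 5 dehydrated) was sequenced from stranded libraries, per the labels' protocols. What the authors deposited were unscaled whole-number read counts by Ensembl gene; the submitters' processing notes name CASAVA, FastQC, STAR, featureCounts and DESeq2 1.28.1. Genome build, annotation and strand setting: not given in the sources used here, and overlapping or antisense genes are therefore uncertain. The authors also deposited their own comparison with log2 fold changes, p-values, a Wald score and size-factor normalised counts (a signal), per the file headers; gene symbols came from it. Titles and descriptions number euhydrated columns 3 to 5 differently, so only their group was used, and library names here are column numbers.

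Genes passing filterByExpr were TMM-scaled, and the quasi-likelihood test of edgeR 4.0.16 (R 4.3.3) compared the groups without covariates, using robust glmQLFit. Intervals of 95% used the quasi-likelihood SE. Ratios of gene pairs used log2 CPM with a prior count of 2 and exact permutation tests over the 252 labellings. The test was checked on simulated data for this comparison (15223 genes), with 49 or 50 genes changed at each size. Counts were drawn with the dispersions fitted here. The test recovered 52% of genes changed 1.25-fold, 80% at 1.5-fold, 85.7% at 2-fold and 98% at 3-fold. Of its calls 7.65% were false. The real comparison called 1942 genes, more than the simulation changed, so its own shares may differ. DESeq2 1.42.0, limma 3.58.1 and other settings were alternatives. No library was a duplicate: within groups, counts varied beyond sampling noise (chi-square over degrees of freedom, 4.86 to 12.1). From each list the text names at most 4 called genes, by size of change, otherwise the 2 with the highest CPM, with all peptide and NHLH2 target genes; genes like Cited1 were the 3 nearest with a mean of at least 1 CPM. Members and lists were chosen with earlier results of these data known. Promoter sequences are RefSeq's, for GRCr8, and bear on no coordinate of the deposited files.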

Additional observations from a re-analysis of the deposited data

Results flagged for a closer look

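Otp in euhydrated library 4 stood at 34.4 CPM, far below the other 4 euhydrated libraries (41.6 to 43.0 CPM), by Dixon's test for a lone extreme value in a small group. Of 20 groups checked (10 genes in 2 conditions) this was the only one, and chance marks about 1 in 20. Without that library the log2 fold change of Otp was 0.020 (edgeR adjusted p = 0.914), and over all fits without 1 library it ran from 0.020 to 0.14 (edgeR adjusted p 0.247 to 0.914).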

How the results depend on the processing

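Under 22 alternatives Cited1 kept its direction and call, and Nhlh2 lost its call in 1, the erythrocyte covariate. The number of members that rose was then 1. Members that fell numbered 1, Arnt2, with library totals. Over all genes, 904 rose and 1173 fell with library totals, against 1192 and 750. With the erythrocyte covariate 595 rose and 204 fell, and at an adjusted p under 0.01 658 rose and 233 fell. Without 1 library 955 to 1113 genes rose and 516 to 689 fell, and always 2 members rose and 0 fell. Signs of uncalled genes turned in places: Otp was -0.081 with the erythrocyte covariate, and with the oligodendrocyte covariate Pou3f2 was 0.042, Smad4 0.0068 and Foxp2 0.086; Foxp2 was 0.0091 with the astrocyte covariate. Without 1 library, log2 fold changes ran from -0.050 to 0.30 for Pou3f1, from -0.071 to 0.0094 for Pou3f2, from -0.018 to 0.010 for Smad4, from -0.042 to 0.070 for Foxp2, from 0.029 to 0.15 for Sim1, from 0.096 to 0.22 for Oxt, from 0.32 to 0.72 for Trh and from -0.19 to -0.082 for Sst. Differences of log2 ratios then ran from -0.041 to 0.36 for Pou3f1 to Pou3f2, from 0.45 to 0.64 for Cited1 to Cited2, from 0.098 to 0.22 for Sim1 to Arnt2, from -0.32 to -0.17 for Rora to Rorb, from 0.57 to 1.14 for Sim2 to Sim1 and from 0.099 to 0.21 for Foxp1 to Foxp2. The cause was not tested.

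With the replicate block by column number 1160 genes rose and 796 fell, and Nhlh2 and Cited1 kept their calls. The numbers were not shown to pair samples: same-numbered libraries had correlations of -0.068 to 0.14, and 1 of 5 euhydrated libraries matched its own number best. Sign flips within numbers cannot give a p below 0.0625. The members with the fewest reads a library were Sim2 (1 to 18, too few to be tested) and Rora (42 to 88).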
